A study of Mus musculus with 12 samples.

Results

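Metaphyseal *Osx*+ osteoblasts in which *c-Myc* had been switched on were compared with *Osx*+ osteoblasts of adult mice. The comparison took 8 of the 12 RNA-seq libraries of the series, the 4 induced and the 4 adult ones, and the other 4, from juvenile mice, served as the alternative control. All 13005 genes that passed a filter on low counts, of 32288 in the count table, entered it. Most of what separated the induced cells from juvenile osteoblasts also separated them from adult osteoblasts. Genes of DNA replication, mitosis and ribosome production were higher, and genes of the bone matrix, of cartilage and of cell adhesion were lower, than in either control. The calls of glycolysis genes, and of some Hedgehog genes, differed with the control used.

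The controls carried *Osx-CreERT2*, a tamoxifen-dependent Cre driven by the promoter of *Osx* (*Sp7*), and *mTmG*, a reporter that changes from membrane tdTomato to membrane GFP where Cre has acted. Adult controls were 8 weeks old and juvenile controls 3 weeks old. Both received tamoxifen on 3 consecutive days and were collected 2 days later, with the bones of 2 male mice pooled for each library. The induced mice carried in addition *LSL-tTA* and *Col1a1*::*TetO–c-Myc*, so that Cre switches on a transactivator that drives *c-Myc* in the absence of doxycycline. The *c-Myc* allele also holds an *IRES-mCherry* cassette. Of the 4 induced libraries, 2 were of this genotype (cMyc) and 2 also carried *Trp53-LSL-R172H*, a Cre-activated dominant-negative p53 allele (R172HcMyc). Induced mice received tamoxifen on 2 consecutive days and were collected 7 days later. Their library titles give 3 weeks, whereas the dissection protocol describes them as 5 weeks old. The paper's methods describe doxycycline or tetracycline in drinking water, stopped before analysis, for tet-OFF mice or pregnant females. They name none for the reporter controls. All mice were of a mixed C57BL/6 and 129x1/Sv background. Cells were sorted as GFP-positive and negative for CD31, CD45 and TER119, which removes endothelial and blood cells.

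*c-Myc* encodes a transcription factor that pairs with MAX and binds E-box sequences. It is known for raising ribosome production, nucleotide synthesis and entry into DNA replication, and its gene is often amplified in osteosarcoma. *Osx* is a transcription factor needed for osteoblast formation. Osteoblasts secrete type I collagen and mineralise it, and those of the metaphysis lie next to the growth plate cartilage from which long bones lengthen.

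Induced and adult groups also differed in age, in the length of diaphysis kept at dissection (5 mm against 2 mm below the growth plate), in the tamoxifen schedule and in sex. The drinking water may have differed too, by the doxycycline or tetracycline described for tet-OFF mice. *Xist*, the RNA of the inactive X chromosome, measured 0.0457, 234, 0.183 and 212 counts scaled to library size (CPM) in cMyc 1, cMyc 2, R172HcMyc 1 and R172HcMyc 2. It stayed at 0.304 to 1.24 CPM in the adult libraries, so both second replicates stood apart from all the rest. Without these 2 libraries, 2036 genes were called higher and 2154 lower than in adult cells, against 2343 and 2600 with them. The effect of the oncogene cannot be told apart from that of these other differences, and setting a juvenile control beside the adult one changes the age of the control but none of the others. Fewer cells of a type and less RNA per cell cannot be told apart in sorted bulk samples either.

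Total counts ran from 9066154 to 10823288 in adult and from 12823338 to 15684412 in induced libraries. The gene model *Gm26917* took 4.70% to 10.5% of adult and 26.5% to 29.4% of induced counts, while *Col1a1* took 21.4% to 34.1% of adult and 5.61% to 11.3% of induced counts. CPM values below are therefore scaled by TMM factors, which centre the bulk of genes, and the median log2 fold change of all genes tested was 0.02 against adult and 0.03 against juvenile controls. With library totals and no such factor these medians were 0.69 and 0.96, and 76.8% instead of 47.4% of the calls against adult cells were increases. Read against that shift, the median of every gene list kept its sign under all 4 other scalings tried. Values are listed for replicates 1 to 4 of a control, and for cMyc 1, cMyc 2, R172HcMyc 1 and R172HcMyc 2 of the induced cells. Osteoblast markers were detected in both groups, although *Col1a1*, *Bglap* and *Ibsp* were lower in induced cells. The adult libraries also held 36405 to 131982 summed CPM of chondrocyte markers. *Sp7* measured 141, 193, 192 and 176 CPM in adult and 122, 152, 119 and 123 CPM in induced libraries, *Runx2* 146 to 229 and 137 to 147 CPM, and *Ibsp*, *Alpl*, *Col1a1* and *Bglap* were also detected in every library.

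Against adult osteoblasts, 2343 genes were higher (18% of those tested) and 2600 lower (20.0%) in induced cells, at an adjusted p below 0.05 and a change of at least 2-fold by edgeR's quasi-likelihood test. Against juvenile osteoblasts the counts were 2396 (18.4%) and 2409 (18.5%). The counts of each gene list are to be read beside these shares. Both comparisons share the 4 induced libraries. Of the genes higher than in adult cells, 1908 were higher than in juvenile cells too, which is 81.4% of the former list and 79.6% of the latter. Of those lower, 1977 were lower against both controls, 76.0% and 82.1% of the lists. Each genotype on its own gave similar counts against adult cells, with 2218 genes higher (17.1%) and 2108 lower (16.2%) for cMyc, and 2253 higher (17.3%) and 2474 lower (19%) for R172HcMyc. Of the genes called higher against both controls, 1757 were called against adult cells in each genotype, as were 1649 of those called lower.

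A call against the adult control alone was made for 434 higher and 622 lower genes. Most of these had the same sign against juvenile cells (419 and 547), and 236 and 184 of them also passed the adjusted p there without reaching the fold. The contrast of juvenile over adult cells is the difference between both comparisons and tests whether a change depends on the control. It passed for 461 genes higher (3.54%) and 633 lower (4.87%) in juvenile cells, among them 57 of the 434 and 160 of the 622. Its 1094 calls became 687 without juvenile 2 and 619 without adult 1. A call against the juvenile control alone was made for 487 higher and 431 lower genes, of which 74 and 83 passed that test. Only 2 genes were called in opposite directions.

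**Figure D1:**
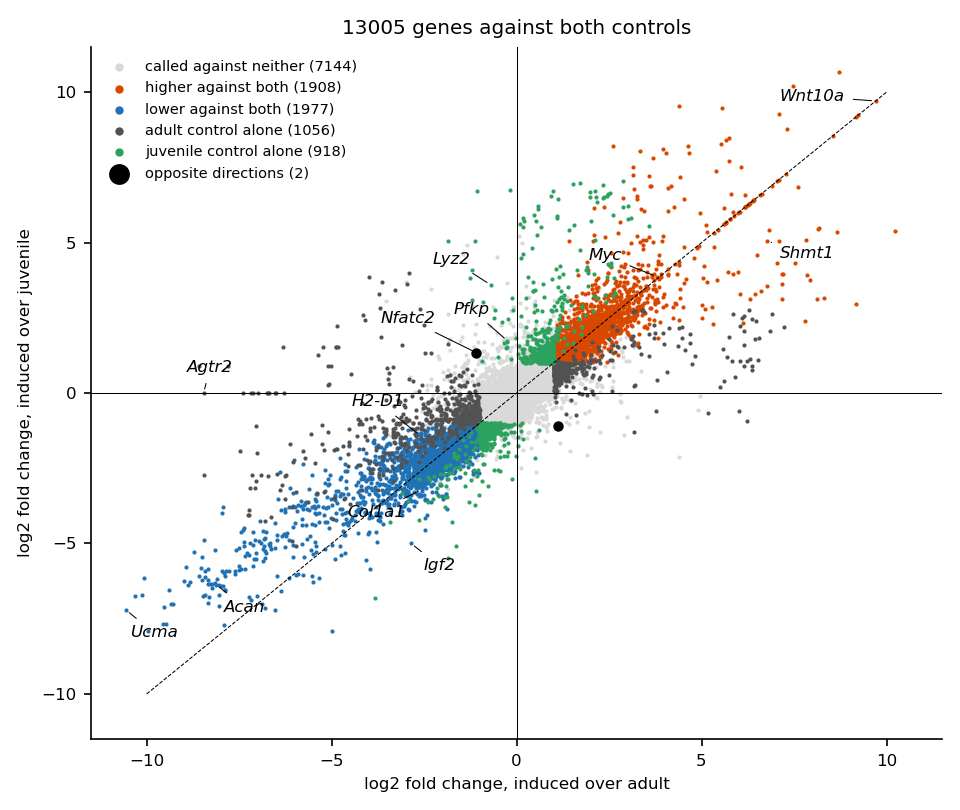
Fitted log2 fold change of the induced cells over adult (x axis) and over juvenile (y axis) osteoblasts for each of the 13005 genes tested, coloured by the control against which the gene was called, with a dashed line of equal change. The 1908 genes called higher and 1977 called lower against both controls lie in the upper right and lower left, and the most extreme fitted values belong to genes near 0 in a group.

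*Myc* (GRCm38, chr15:61985391-61990374, plus strand) checked the induction. It measured 51.2, 44.7, 47.9 and 47.4 CPM in adult and 624, 658, 639 and 748 CPM in induced libraries, without overlap. The log2 fold change was 3.80 ± 0.11 (SE; adjusted p = 6e-14, edgeR) against adult and 3.86 against juvenile cells. Reads from the transgene and from the endogenous gene are not separated by the count. Of 15 genes of the MYC, MAX and MXD network, *Myc* itself included, 2 were higher and 1 lower than in adult cells. The shares over all genes tested were 18% and 20.0%. *Max* did not pass the test at 0.17, *Zbtb17*, which encodes the MYC partner MIZ1, was higher at 1.04 (not called without adult 3 or adult 4, at 0.85 and 0.96), and *Mxd4*, which encodes a competitor for MAX, was lower at -1.39.

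DNA replication genes rose together. Of 40 listed, 39 were called higher and none lower against adult cells, and 37 and none against juvenile cells, with medians of 2.63 and 2.59. *Mcm2*, a subunit of the replicative helicase, measured 21.7, 6.66, 9.06 and 17.6 CPM in adult and 115, 110.1, 114 and 109 CPM in induced libraries. Adult 1 and adult 4 were higher than the other two, and all 4 lay far below every induced value, with a log2 fold change of 3.01 ± 0.30 (adjusted p = 2.2e-06, edgeR). *Orc1* (GRCm38, chr4:108579423-108614833, plus strand), the large subunit of the complex that marks replication origins, had no count in any adult library and 6.58, 5.27, 6.27 and 4.52 CPM in induced ones. Set against 3 counts over the adult group it was at least 67.6-fold higher. *Ticrr*, which encodes a factor needed for origins to fire, rose by 4.04 on the log2 scale and *Pcna*, the sliding clamp, by 1.90.

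All 36 mitosis genes were called higher against both controls, with medians of 2.20 and 2.39. *Mki67*, the proliferation antigen, measured 49.7, 24.0, 27.7 and 26.3 CPM in adult and 165, 169, 197 and 186 CPM in induced libraries. It was higher in all 4 induced libraries, by 2.48 ± 0.23 on the log2 scale against adult and 2.37 against juvenile cells. The mitotic kinase genes *Plk1* and *Aurka* rose by 3.40 and 3.36. Of 24 cyclin, cyclin-dependent kinase and inhibitor genes, 12 were higher and 3 lower than in adult cells. *Ccne1*, the cyclin of entry into replication, and *E2f7*, a repressor of the E2F family, rose by 3.28 and 3.08, and the 3 that fell encode CDK inhibitors, *Cdkn1c* (-4.28), *Cdkn2c* (-1.80) and *Cdkn2d* (-1.12, named after its value was seen). *Cdkn2c* was control-dependent, with -0.58 against juvenile cells and an adjusted p of 0.0162 for the difference. *Cdkn2a*, the locus of ARF and p16, measured 2.63, 1.92, 1.94 and 2.56 CPM in adult, 7.99 and 5.27 in cMyc and 19.5 and 17.5 in R172HcMyc libraries. All induced values lay above the adult ones, with log2 fold changes of 2.28 ± 0.58 against adult and 2.93 against juvenile cells, while the difference between the genotypes (1.48) did not pass the test (adjusted p = 1).

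DNA damage response genes followed, with 31 of 42 higher and none lower against adult cells and 32 and none against juvenile cells (medians 1.70 and 1.83). *Exo1*, an exonuclease of mismatch repair and end resection, and *Rad54l*, a recombination motor, rose most, by 4.40 and 3.91. The checkpoint kinase genes *Atr*, *Atm* and *Chek1* rose by 2.19, 2.03 and 3.03. *Atr* measured 10.2, 7.68, 6.73 and 7.04 CPM in adult and 41.0, 34.9, 38.9 and 30.1 CPM in induced libraries. The groups did not overlap, and 29 genes of the list were higher against both controls.

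The chromatin list behaved alike, with 16 of 23 genes higher and 1 lower against adult cells (median 1.45). *Hmga1*, a chromatin architectural protein gene, measured 1.42, 0.452, 1.81 and 1.71 CPM in adult and 31.6, 48.5, 47.0 and 39.7 CPM in induced libraries. It rose by 4.95 ± 0.37 on the log2 scale, with no overlap, although its near-identical copy *Hmga1b* can take reads from it. *Hmga2*, the related gene, was the exception at -5.44, from 0.640 to 2.59 CPM in adult libraries, and *Ezh2*, the methyltransferase of Polycomb complex PRC2, rose by 1.42.

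Ribosome biogenesis genes were higher in 38 of 40 cases and lower in none against adult cells, and in 37 and none against juvenile cells (medians 2.18 and 2.22). *Ncl*, the nucleolar protein nucleolin, measured 129, 93.0, 99.9 and 139.8 CPM in adult and 724, 703, 737 and 709.7 CPM in induced libraries. The induced libraries lay close together and far above the adult level, with a log2 fold change of 2.64 ± 0.14 (adjusted p = 6.84e-11, edgeR). *Npm1* and *Fbl*, further nucleolar proteins, rose by 2.71 and 2.53. *Rrp9* and *Grwd1*, which act in ribosomal RNA processing and ribosome assembly, rose most in the list, by 3.12 and 2.86.

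Of 30 nucleotide and polyamine synthesis genes, 26 were higher and none lower against adult cells, and all 26 were higher against juvenile cells too (median 2.02 against adult). *Shmt1* (GRCm38, chr11:60788104-60811718, minus strand), the cytosolic serine hydroxymethyltransferase that feeds thymidylate synthesis, showed the largest change of the list. It measured 1.52, 0.113, 0.388 and 0.533 CPM in adult, 1.37, 1.14, 2.92 and 3.85 in juvenile and 82.6, 63.1, 79.9 and 70.0 CPM in induced libraries. All controls lay far below all induced libraries, with log2 fold changes of 6.78 ± 0.41 and 5.05 ± 0.35. The difference between the controls did not pass the test (adjusted p = 0.0577). *Odc1*, the first enzyme of polyamine synthesis, *Cad*, which starts pyrimidine synthesis, and *Tyms*, thymidylate synthase, rose by 1.27, 1.49 and 2.52.

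Since MYC binds E-boxes, the windows from 250 bases before to 50 bases after the start of each gene (RefSeq, GRCm38.p6) were searched for CACGTG, which is its own reverse complement. The motif was present in 9.89% of 12945 windows of 10100 tested genes, in 12.9% of 1786 windows of genes higher against both controls and in 7.57% of 1916 windows of genes lower against both. It was present in 7 of 43 ribosome biogenesis and 5 of 30 nucleotide synthesis windows, and in 3 of 43 osteoblast matrix windows. These shares are descriptions, and a match is not a binding site. The windows of the 4 genes of these 2 lists with the motif and the largest increases are printed because they show where it lies, with the motif in capitals and all bases read along the gene's strand.
*Grwd1* (chr7:45830740-45831039, minus strand): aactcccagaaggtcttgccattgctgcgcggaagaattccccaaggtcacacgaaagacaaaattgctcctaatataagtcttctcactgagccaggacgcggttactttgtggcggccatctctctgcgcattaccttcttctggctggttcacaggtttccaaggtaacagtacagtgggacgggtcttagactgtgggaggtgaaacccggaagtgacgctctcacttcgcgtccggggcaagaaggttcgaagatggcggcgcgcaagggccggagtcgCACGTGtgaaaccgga
*Tyms* (chr5:30073576-30073875, minus strand): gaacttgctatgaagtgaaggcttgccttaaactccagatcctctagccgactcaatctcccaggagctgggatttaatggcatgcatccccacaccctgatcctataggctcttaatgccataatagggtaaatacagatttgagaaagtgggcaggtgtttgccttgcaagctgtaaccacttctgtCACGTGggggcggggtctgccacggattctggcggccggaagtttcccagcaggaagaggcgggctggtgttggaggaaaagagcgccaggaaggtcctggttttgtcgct
*Utp20* (chr10:88826765-88827064, minus strand): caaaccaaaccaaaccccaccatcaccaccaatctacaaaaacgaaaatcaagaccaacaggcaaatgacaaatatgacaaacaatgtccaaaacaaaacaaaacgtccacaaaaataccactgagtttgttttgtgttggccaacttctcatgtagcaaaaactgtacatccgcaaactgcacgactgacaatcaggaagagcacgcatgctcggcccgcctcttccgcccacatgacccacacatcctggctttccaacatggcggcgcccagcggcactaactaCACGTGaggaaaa
*Nop2* (chr6:125131633-125131932, plus strand): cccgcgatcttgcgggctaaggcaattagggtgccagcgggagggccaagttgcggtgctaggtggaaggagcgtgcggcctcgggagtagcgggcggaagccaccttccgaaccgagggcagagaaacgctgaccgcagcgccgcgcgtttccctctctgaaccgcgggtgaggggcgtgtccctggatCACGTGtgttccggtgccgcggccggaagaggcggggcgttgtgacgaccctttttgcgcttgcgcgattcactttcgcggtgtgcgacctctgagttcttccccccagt
The motif begins 61 and 60 bases before the start in *Tyms* and *Nop2*, and at transcribed base 35 in *Grwd1* and 38 in *Utp20*. *Utp20* and *Nop2*, both of ribosomal RNA processing, rose by 2.30 and 2.25 against adult cells.

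Most oxidative phosphorylation genes were not called. Of 36 listed, 10 were higher and 1 lower against adult cells, beside 18% and 20.0% of all genes tested. The median was 0.76 against adult and 0.77 against juvenile cells. As a sum the list was higher than in either control, at 1653 to 1734 CPM in adult, 1654 to 1850 CPM in juvenile and 2941 to 3403 CPM in induced libraries. The 10 became 6 with upper-quartile factors and 28 with library totals. *Uqcrfs1* and *Uqcrc1*, subunits of respiratory complex III, rose by 1.63 and 1.59, and *Ndufa1*, a subunit of complex I, was lower at -1.83.

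The bone matrix went the other way. Of 52 matrix and mineralisation genes, 50 were lower and none higher against adult cells, and 49 were lower against both controls (medians -2.56 and -2.54). *Col1a1*, the main chain of type I collagen, measured 234069, 406721, 372933 and 224108 CPM in adult, 65489 and 87936 in cMyc and 35289 and 37118 in R172HcMyc libraries. All 4 induced libraries lay below the lowest adult one, with log2 fold changes of -2.55 ± 0.22 against adult and -3.20 ± 0.22 against juvenile cells. *Bglap*, which encodes osteocalcin, measured 335, 645, 541 and 299.6 CPM in adult and 27.6, 52.5, 12.4 and 8.59 CPM in induced libraries. It was lower in each induced library and changed by -4.47 ± 0.36, although reads may be split with its near-identical neighbour *Bglap2*. *Ibsp*, which encodes bone sialoprotein, fell by 1.69 on the log2 scale, and *Col15a1* and *Col6a2* showed the largest changes, -6.22 and -5.14. For both of the latter the change was larger against adult than against juvenile cells (-4.64 and -3.84, adjusted p = 0.00305 and 1.17e-05 for the difference). The matrix genes not called lower were *Phospho1* (-0.57), a phosphatase of mineralisation, and *Slc20a1* (0.80), a phosphate transporter, both named after their values were seen.

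Fewer transcription factors of the lineage were called. Of 24, 8 were lower and 2 higher against adult cells, beside 20.0% and 18% of all genes tested. The median was -0.55, and 0.15 with library totals. *Sp7* and *Runx2*, the central osteoblast factors, stayed short of the 2-fold limit and were not called, with -0.45 ± 0.11 and -0.27 ± 0.13. That does not show that they were unchanged. *Msx2*, a homeobox gene of early osteogenic cells, rose by 1.71 against adult and 1.76 against juvenile cells, although the former call was lost without adult 4, cMyc 2 or R172HcMyc 2 (1.32, 1.52 and 1.58). *Tcf7*, a Wnt effector, measured 32.7, 69.9, 66.6 and 49.7 CPM in adult, 119, 113, 86.9 and 109 CPM in juvenile and 157, 159.8, 151 and 148 CPM in induced libraries. It was called against adult cells (1.50 ± 0.18) but not against juvenile cells (0.53 ± 0.18), and the controls differed (adjusted p = 0.00509). Of 13 osteocyte genes, 7 were lower and none higher, all 7 against both controls, with *Fbln7* (-6.83) and *Pdpn* (-3.71) changing most. *Sost*, the osteocyte-secreted Wnt inhibitor, did not pass the filter on low counts.

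Wnt, adhesion and paracrine genes fell in part. Of 34 Wnt pathway genes, 16 were lower and 4 higher against adult cells (median -0.90), beside 20.0% and 18% of all genes tested. Against both controls 14 were lower. *Wnt10a* (GRCm38, chr1:74791516-74804179, plus strand), a Wnt ligand, had no count in any of the 8 control libraries and 9.23, 9.07, 8.28 and 6.30 CPM in the induced ones, at least 98.2-fold above 3 counts over the adult group. *Wnt10b* rose by 2.84 and *Sfrp2*, a secreted Wnt modulator, by 3.27, whereas *Axin2*, a feedback target of the pathway, was lower at -1.52. With library totals *Axin2* was not called (-0.83). Of 22 adhesion genes, 15 were lower and none higher (median -1.36). They included *Cdh11*, the osteoblast cadherin, at -2.51, *Gja1*, its main gap junction protein, at -1.82, and *Ccn2* and *Thbs1*, secreted matrix-associated proteins, at -3.82 and -3.69. Of 21 osteoblast signals to osteoclasts and vessels, 12 were lower and 1 higher (median -1.10). *Tnfrsf11b*, the osteoclast inhibitor osteoprotegerin, was at -2.42, while *Tnfsf11*, which encodes its ligand RANKL, was not called at -0.17.

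Of 27 juvenile growth and imprinted genes, 17 were lower and 2 higher against adult cells, and 15 were lower against both controls (medians -2.42 and -2.21). *H19*, an imprinted non-coding RNA, measured 229.8, 65.1, 101 and 250.4 CPM in adult and 0.959, 1.64, 2.01 and 2.68 CPM in induced libraries. Its change was -6.54 ± 0.72 against adult and -5.15 against juvenile cells. *Igf2*, the imprinted growth factor beside it, depended on the control. It measured 12.8, 6.77, 7.50 and 11.4 CPM in adult, 72.6, 54.0, 22.3 and 20.9 CPM in juvenile and 1.46, 1.42, 0.870 and 1.59 CPM in induced libraries. Juvenile cells had the most, adult cells less and induced cells least, with changes of -2.85 ± 0.44 against adult and -5.00 ± 0.45 against juvenile cells (adjusted p = 0.00562 for the difference). *Slc38a4*, an amino acid transporter gene, and *Igf2bp2*, an RNA-binding protein gene, rose by 2.26 and 3.06.

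**Figure D2:**
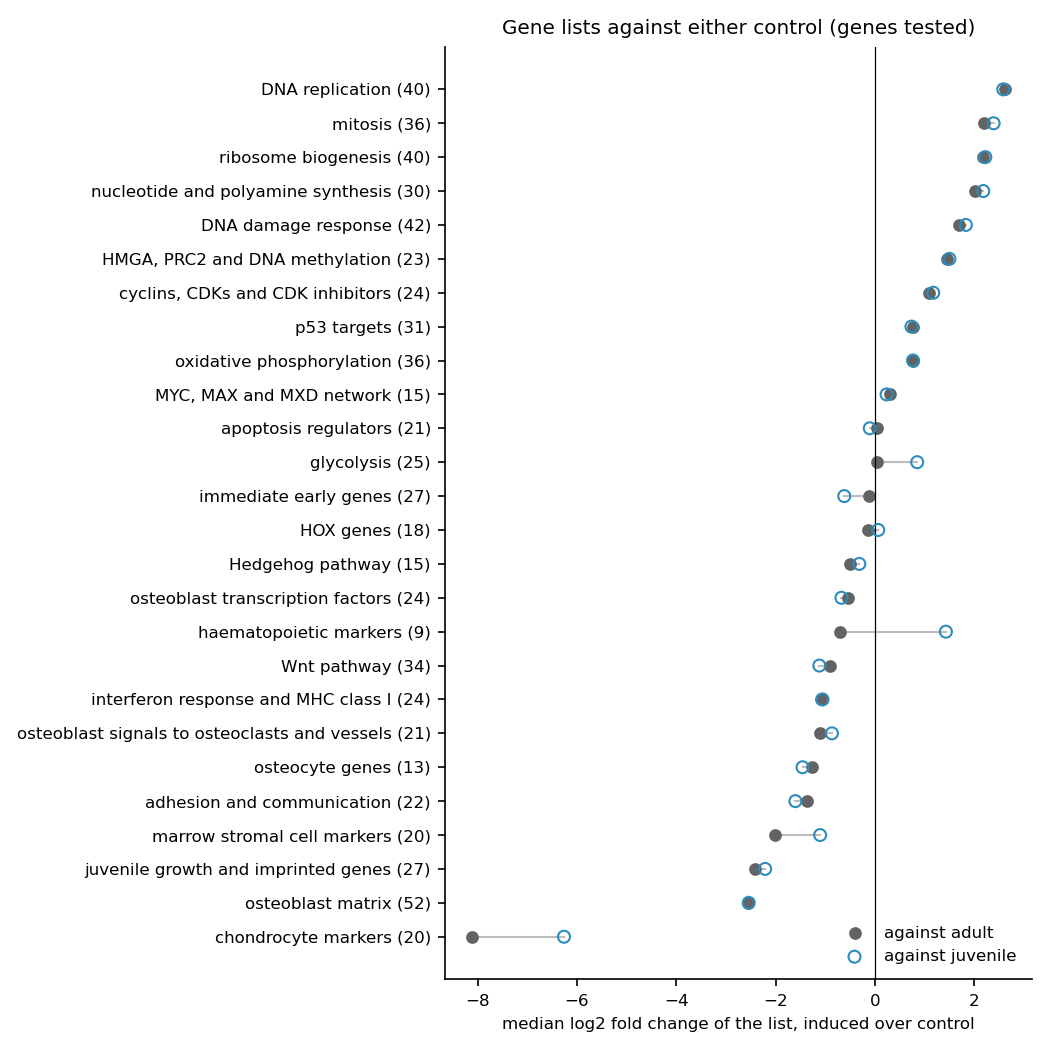
Median log2 fold change of each gene list with at least 9 genes tested, induced over adult (filled) and induced over juvenile (open), with the number of genes tested in brackets. Replication, ribosome and matrix lists have nearly the same median against either control, while the glycolysis, haematopoietic, marrow stromal and chondrocyte lists have medians that lie apart.

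Glycolysis was the metabolic list whose result turned on the control. Of 25 genes, 3 were higher and 4 lower against adult cells, with a median of 0.04 (-0.05 with upper-quartile factors), whereas 11 were higher and none lower against juvenile cells, with a median of 0.85. With library totals, 11 were higher and 1 lower against adult cells and 18 higher against juvenile cells. The list's medians were then 0.72 and 1.78, beside 0.69 and 0.96 for all genes. The difference between the controls passed for 11 of the 25, all lower in juvenile than in adult cells, against 4.87% of all genes, and for 18 without adult 2. *Ldha*, lactate dehydrogenase A, measured 480.2, 207, 312 and 437 CPM in adult, 213, 181, 213 and 168 CPM in juvenile and 614, 529.9, 568 and 545 CPM in induced libraries. The induced libraries lay above all controls, but the adult libraries spread towards them, and the change was 0.65 ± 0.20 against adult and 1.54 ± 0.20 against juvenile cells (adjusted p = 0.0162 for the difference). *Pfkp* (GRCm38, chr13:6579768-6648777, minus strand), the platelet isoform of phosphofructokinase, measured 42.7, 15.2, 21.9 and 41.2 CPM in adult, 6.58, 9.18, 9.87 and 5.09 CPM in juvenile and 26.4, 27.8, 23.4 and 24.6 CPM in induced libraries. Here the induced values lay inside the adult range and above every juvenile value, with -0.25 ± 0.27 against adult and 1.74 ± 0.30 against juvenile cells.

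*Eno1* (enolase), *Pgam1* (phosphoglycerate mutase), *Pkm* (pyruvate kinase), *Pgk1* (phosphoglycerate kinase) and *Pfkl* (liver-type phosphofructokinase) behaved in the same way. Like *Pfkp*, they are named after their values were seen. None was called against adult cells (0.51, 0.58, 0.44, -0.50 and -0.15) and all were called against juvenile cells (2.12, 1.98, 1.33, 1.21 and 1.15). With library totals *Eno1* (1.16), *Pgam1* (1.25) and *Pkm* (1.10), and also *Ldha* (1.31), were called against adult cells too. *Slc2a1*, the glucose transporter GLUT1, and *Slc16a3*, a lactate exporter, were lower than in adult cells (-1.35 and -2.54) and not called against juvenile cells (0.36 and -0.38), and *Slc2a1* was not called against adult cells with library totals (-0.69). What held against both controls was *Slc16a1*, another lactate transporter (1.57 and 1.98), and *Pgd* of the pentose phosphate branch (1.05 and 1.39, named after its values were seen, and 0.93 without adult 4, which is no call). *G6pdx*, the first step of that branch, was called against adult cells alone (1.08 and 0.77), without a difference between the controls (adjusted p = 0.322).

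The adult libraries differed among themselves in these genes and in cartilage genes alike. The summed CPM of the glycolysis list was 3204, 1570.2, 2154 and 2789 in adult 1 to 4, between 1162 and 1489 in juvenile and between 3020.0 and 3293 in induced libraries. The summed CPM of the 21 chondrocyte markers in the count table was 131982, 36405, 58201 and 78685 in the same adult libraries, so adult 1 was highest and adult 2 lowest in both sums. It lay between 9665 and 27951 in juvenile libraries. The part of cartilage RNA in the glycolysis result was not tested, and leaving out adult 1 gave 4 genes higher and 3 lower with a median of 0.05. Several of these enzymes have processed pseudogenes that can take reads from unique mapping, so their levels are uncertain.

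**Figure D3:**
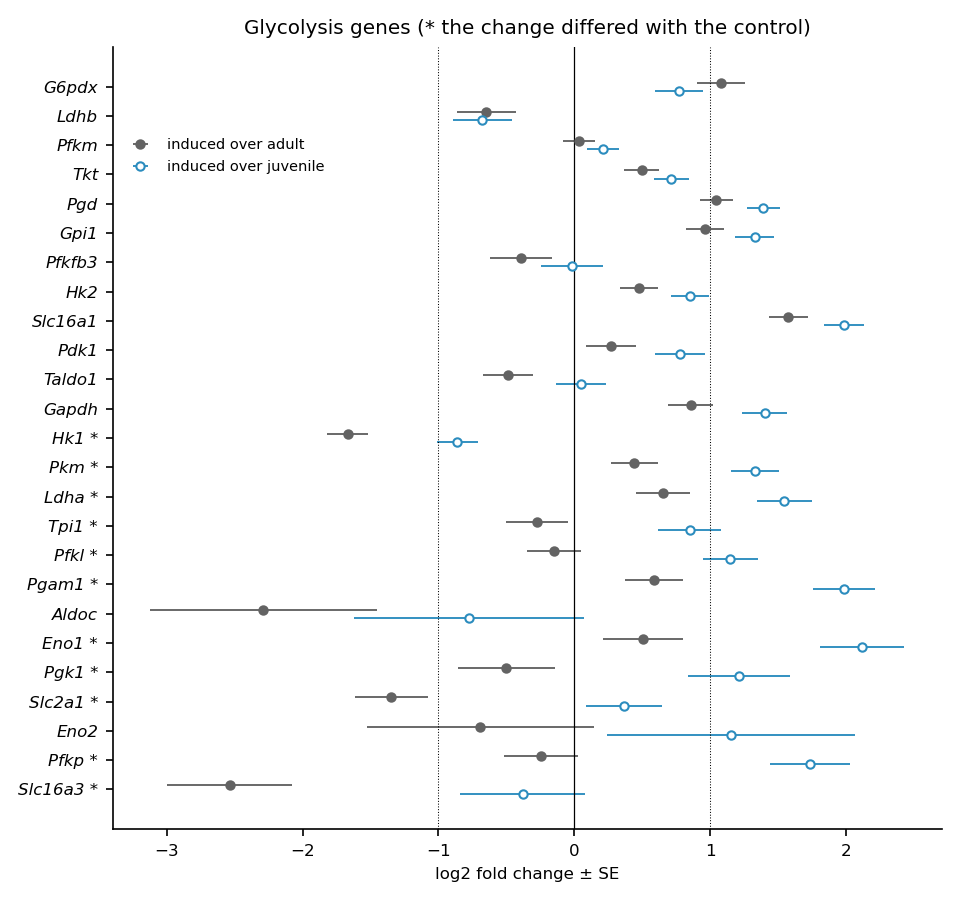
Log2 fold change with its standard error for the 25 glycolysis and pentose phosphate genes, induced over adult (filled) and induced over juvenile (open), ordered by the difference between the controls. The values against juvenile cells lie to the right of those against adult cells for the genes marked with an asterisk, such as *Pfkp* (-0.25 and 1.74), and dotted lines mark a 2-fold change.

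The chondrocyte markers themselves had the lowest median of the lists with at least 9 genes tested, although residual growth plate cartilage had been removed at dissection. Of 20 genes, 19 were lower and none higher against either control, with medians of -8.11 against adult and -6.26 against juvenile cells. *Col2a1*, the collagen of cartilage, measured 101300.0, 27817, 45349 and 60556 CPM in adult and 451, 269, 128 and 125 CPM in induced libraries. *Acan*, the cartilage proteoglycan aggrecan, measured 7373, 1966, 2509.9 and 3549.8 CPM in adult and 24.3, 19.3, 10.2 and 7.20 CPM in induced libraries, a change of -8.12 ± 0.73. Both were still well above 0 in every induced library and lowest in the R172HcMyc libraries. *Ucma* (GRCm38, chr2:4976122-4985748, plus strand), a cartilage matrix protein, measured 173, 44.6, 93.9 and 167 CPM in adult and 0.137, 0.227, 0 and 0.0496 CPM in induced libraries. Its fitted change was -10.56 against adult and -7.21 against juvenile cells (adjusted p = 0.00253 for the difference). The summed level in induced libraries was 654 to 857 CPM for cMyc and 442 to 448 CPM for R172HcMyc.

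Markers of other cells that the sort could hold were also called. Of 20 marrow stromal genes, 12 were lower and 1 higher against adult cells and 10 lower against juvenile cells, with medians of -2.02 and -1.10. *Cxcl12*, the chemokine that retains blood stem cells, measured 316, 391, 194 and 206 CPM in adult and 53, 119, 64.9 and 46.0 CPM in induced libraries and changed by -2.00. *Lepr*, the leptin receptor of these cells, was at -3.18 and *Apoe* at -3.41. The summed level of the list was 1021 to 1526 CPM in adult and 378 to 503 CPM in induced libraries. Of 5 osteoclast genes, 3 were lower, including *Ctsk*, the protease cathepsin K, at -2.59, and the sums of all 10 listed were 293 to 510 CPM in adult and 80.7 to 135 CPM in induced libraries. Endothelial markers summed to 15.2 to 17.8 CPM in adult and 10.4 to 12.1 CPM in induced libraries, and muscle markers to 4.66 to 19.1 and 2.58 to 3.12 CPM. *Eng*, 1 of the 3 endothelial genes tested, was lower at -2.26, and *Tnni2* of fast muscle measured 5.97, 1.81, 1.42 and 14.7 CPM in adult and 0.0457, 0, 0 and 0 CPM in induced libraries. The part of these cells in the results above was not tested.

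Haematopoietic markers were at low levels throughout, and their counts of calls were unstable. Of 9 tested, 2 were higher and 3 lower against adult cells (median -0.70), while 4 were higher and none lower against juvenile cells (median 1.43). With no filter on low counts, 27 genes were tested and the medians were 0.16 and 2.20. The 3 lower calls became 1 without juvenile 2 or adult 3 and 0 without adult 1, adult 2 or any induced library. The 4 higher calls became 2 without juvenile 2, juvenile 4, adult 4, cMyc 1 or R172HcMyc 2, and 1 without cMyc 2 or R172HcMyc 1. *Lyz2*, the lysozyme of macrophages and neutrophils, measured 3.85, 9.26, 4.53 and 7.89 CPM in adult, 0.274, 0.103, 0.974 and 0 CPM in juvenile and 6.49, 5.84, 3.57 and 1.39 CPM in induced libraries. Induced values overlapped the adult ones and exceeded the juvenile ones, with -0.70 ± 0.48 and 3.60 ± 0.65 (adjusted p = 0.00089 for the difference). The list summed to 13.7 to 22.7 CPM in adult, 2.65 to 6.12 CPM in juvenile and 10.2 to 19.1 CPM in induced libraries. *Mpeg1*, a macrophage pore protein, measured 0.911, 3.84, 1.03 and 2.77 CPM in adult and 1.23, 1.64, 0.824 and 0.596 CPM in induced libraries and had no count in any juvenile library. Among genes called higher against juvenile cells alone, it was 1 of the 6 with the largest difference between the controls. So was *Ly75*, a receptor of dendritic cells. *Ptprc*, which encodes the CD45 used in the gate, did not pass the filter on low counts.

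**Figure D4:**
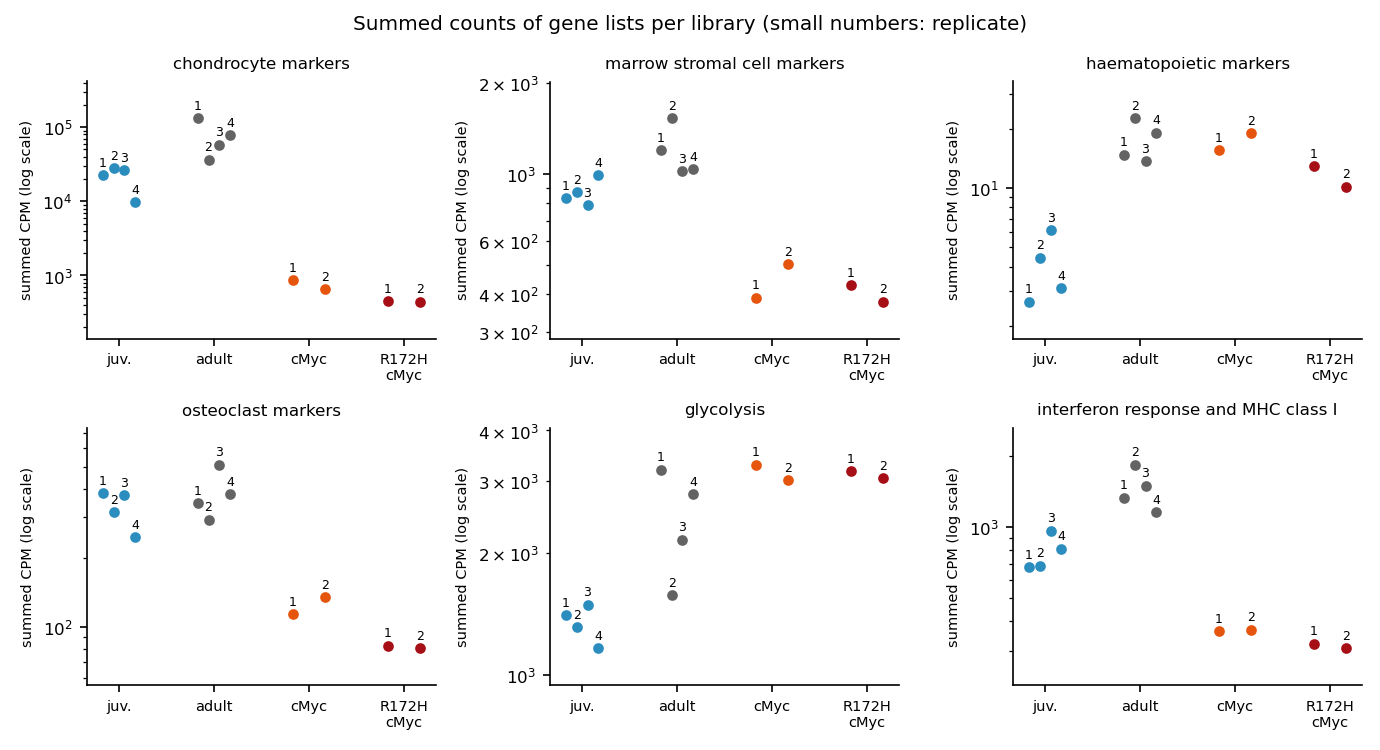
Summed CPM of 6 gene lists in each library (log axis), with the replicate number beside each point. Chondrocyte sums fall from 36405 to 131982 in adult to 442 to 857 in induced libraries, adult 1 is highest and adult 2 lowest in both the chondrocyte and the glycolysis list, and haematopoietic sums are lowest in juvenile libraries.

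Some interferon response and MHC class I genes were lower than in either control. Of 24 listed, 10 were lower and 2 higher against adult cells, 9 and 1 against juvenile cells, and 7 lower against both (medians -1.09 and -1.06). Over all genes tested 20.0% were lower and 18% higher against adult cells. *H2-D1* (GRCm38, chr17:35262730-35267499, plus strand), a classical class I heavy chain, measured 496, 743, 547 and 414 CPM in adult, 204, 204, 296 and 255 CPM in juvenile and 93.2, 92.8, 92.6 and 82.4 CPM in induced libraries. The groups fell into 3 separate levels, adult above juvenile above induced, with -2.61 ± 0.17 against adult and -1.41 ± 0.16 against juvenile cells (adjusted p = 0.000615 for the difference). *B2m*, the class I light chain, *Tapbp* and *Tap1*, which load peptides, and *H2-K1* went the same way, at -2.37, -2.94, -2.30 and -2.48 against adult and -1.61, -2.06, -1.17 and -1.33 against juvenile cells, and the difference between the controls passed for each. *H2-D1* and *H2-K1* are named after their values were seen, and reads may be split between these similar genes. With library totals the list had 9 lower against adult and 1 lower against juvenile cells. The interferon side of the list did not move as one, since *Irf7* (0.01) was not called and *Bst2* rose by 1.42.

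Hedgehog signalling reaches metaphyseal cells as IHH from growth plate cartilage and acts through the GLI factors. Its genes gave calls that depended on the scaling and, for some, on the control. Of 15 genes, 3 were higher and 6 lower against adult cells, beside 18% and 20.0% of all genes tested. Against juvenile cells none was higher and 6 were lower, beside 18.4% and 18.5%. The difference between the controls passed for 1 of the 15 as higher and 2 as lower in juvenile cells. The medians of -0.50 and -0.31 became 0.20 and 0.62 with library totals, and the calls became 4 higher and 5 lower against adult and 5 higher and none lower against juvenile cells. The 3 higher than in adult cells became 1 without adult 1, adult 4 or R172HcMyc 1. *Gli1*, a direct target of the pathway, measured 10.4, 7.22, 10.2 and 18.6 CPM in adult, 20.5, 17.1, 19.3 and 7.70 CPM in juvenile and 31.3, 30.4, 30.5 and 35.8 CPM in induced libraries. All induced values exceeded all control values, and the change was 1.46 ± 0.28 against adult and 0.98 ± 0.28 against juvenile cells. The juvenile value misses the 2-fold limit narrowly, and the difference between the controls did not pass (adjusted p = 0.355). *Gli2* (GRCm38, chr1:118834132-119053619, minus strand), the main activator, measured 15.0, 20.9, 29.6 and 17.7 CPM in adult, 34.0, 30.1, 45.5 and 35.0 CPM in juvenile and 40.1, 43.2, 44.6 and 39.8 CPM in induced libraries.

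The *Gli2* level of induced cells lay above every adult library and within the juvenile range, with 1.02 ± 0.18 against adult, 0.22 ± 0.18 against juvenile cells and an adjusted p of 0.0125 for the difference. The adult call sits at the 2-fold limit and was lost without adult 1, adult 4 or R172HcMyc 1 (0.88, 0.90 and 0.99), in DESeq2 (0.99), with RLE or upper-quartile factors (0.99 and 0.93), with at least 10 counts in every library (0.99), and without *Col1a1*, *Col1a2* and *Gm26917* (0.99). *Ptch1*, the receptor and usual target, was not called (-0.06 ± 0.20), and *Gli3*, which encodes mainly a repressor, was at -0.97 against adult and -1.13 against juvenile cells. *Gli3* passed the limit without adult 2 or R172HcMyc 1 (-1.04 and -1.06). It also passed with RLE or upper-quartile factors (-1.003 and -1.06), with at least 10 counts in every library (-1.005) and in DESeq2 (-1.004). Lower against both controls were *Ihh*, the ligand itself (-2.72 and -2.22), *Hhip*, its decoy receptor (-2.44 and -1.61), and the co-receptor *Cdon* (-2.17 and -1.37), all named after their values were seen. In the paper's single-cell data *Ihh* was found in the chondrocyte cluster only. The part of cartilage RNA in the *Ihh* values was not tested. *Foxf2*, a mesenchymal Hedgehog target, measured 4.96, 0.564, 3.62 and 2.45 CPM in adult, 0.457, 0, 0 and 0.124 CPM in juvenile and 0.274, 0.113, 0.366 and 0.298 CPM in induced libraries. It was lower than in adult cells alone, and the controls differed (adjusted p = 0.0176).

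Of 31 p53 target genes, 12 were higher and 3 lower against adult cells, 12 and 4 against juvenile cells, and 11 and 3 against both (medians 0.77 and 0.74). All genes tested gave shares of 18% and 20.0% against adult and 18.4% and 18.5% against juvenile cells. For each genotype alone the median against adult cells was 0.86 in cMyc and 0.52 in R172HcMyc. *Bax*, which permeabilises mitochondria in apoptosis, measured 11.1, 13.4, 7.89 and 19.9 CPM in adult and 57.5, 52.3, 50.5 and 48.3 CPM in induced libraries. It rose without overlap by 1.99 ± 0.21 against adult and 1.65 against juvenile cells. *Eda2r*, a death receptor gene, and *Pidd1*, a p53-induced adaptor gene, rose by 3.50 and 2.68. *Trp53* itself rose by 1.51 and 1.42. *Cdkn1a*, which encodes the CDK inhibitor p21, measured 109, 134, 171 and 127 CPM in adult and 164, 201, 208 and 188 CPM in juvenile libraries. It was at 191 and 197 CPM in cMyc and 137 and 142 CPM in R172HcMyc libraries, a difference that was not called. Averaged over both genotypes it was called against neither control, with 0.29 ± 0.12 against adult (adjusted p = 0.0501) and -0.21 ± 0.12 against juvenile cells. The controls differed from each other (adjusted p = 0.0187).

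*Pmaip1*, which encodes the BH3-only protein NOXA, measured 1.92, 2.48, 1.16 and 7.25 CPM in adult, 13.1, 10.9, 9.87 and 11.8 CPM in juvenile and 3.06, 4.20, 1.97 and 2.04 CPM in induced libraries. Induced cells overlapped adult cells and lay below all juvenile ones, with -0.26 ± 0.41 and -2.08 ± 0.40 (adjusted p = 0.0122 for the difference). *Tnfrsf10b*, the death receptor DR5, went the other way, at -0.25 against adult and 1.70 against juvenile cells, and is named after its values were seen. Of 21 apoptosis regulators, 4 were higher and 2 lower against adult cells (median 0.05, and -0.04 with upper-quartile factors). Over all genes tested 18% were higher and 20.0% lower, so increases were near that share and decreases below it. *Bid*, which links death receptors to mitochondria, and *Bok* rose by 4.23 and 2.81, *Bcl2l1*, which encodes the survival protein BCL-XL, and *Birc3* were at -1.26 and -1.23, and *Mcl1* (0.58) was not called.

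Of 27 immediate early genes, none was higher and 7 were lower against adult cells, and 2 and 12 against juvenile cells (medians -0.12 and -0.62, or 0.54 and 0.32 with library totals). For these and the HOX genes below, the shares over all genes tested were 18% higher and 20.0% lower against adult cells. The 12 became 7 without cMyc 1 or R172HcMyc 1. *Fos* measured 965, 264, 462 and 799 CPM in adult and 557, 611, 613 and 608 CPM in induced libraries and was not called against adult cells (-0.06 ± 0.34). *Dusp1*, a phosphatase of the same acute response, was lower against both, at -2.78 and -2.62. These genes also respond to tissue dissociation, the part of which was not tested. Of 18 HOX and limb patterning genes, 1 was higher and 6 lower against adult cells (median -0.14, or 0.53 with library totals). *Hoxa10* and *Hoxa11* of the limb were not called (-0.10 and -0.22), *Hoxa9* rose by 1.35 (not called without adult 2, adult 3 or cMyc 2, at 1.22, 1.16 and 1.33), and *Hoxd8* and *Hoxd9* were lower at -4.20 and -4.19.

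**Figure D5:**
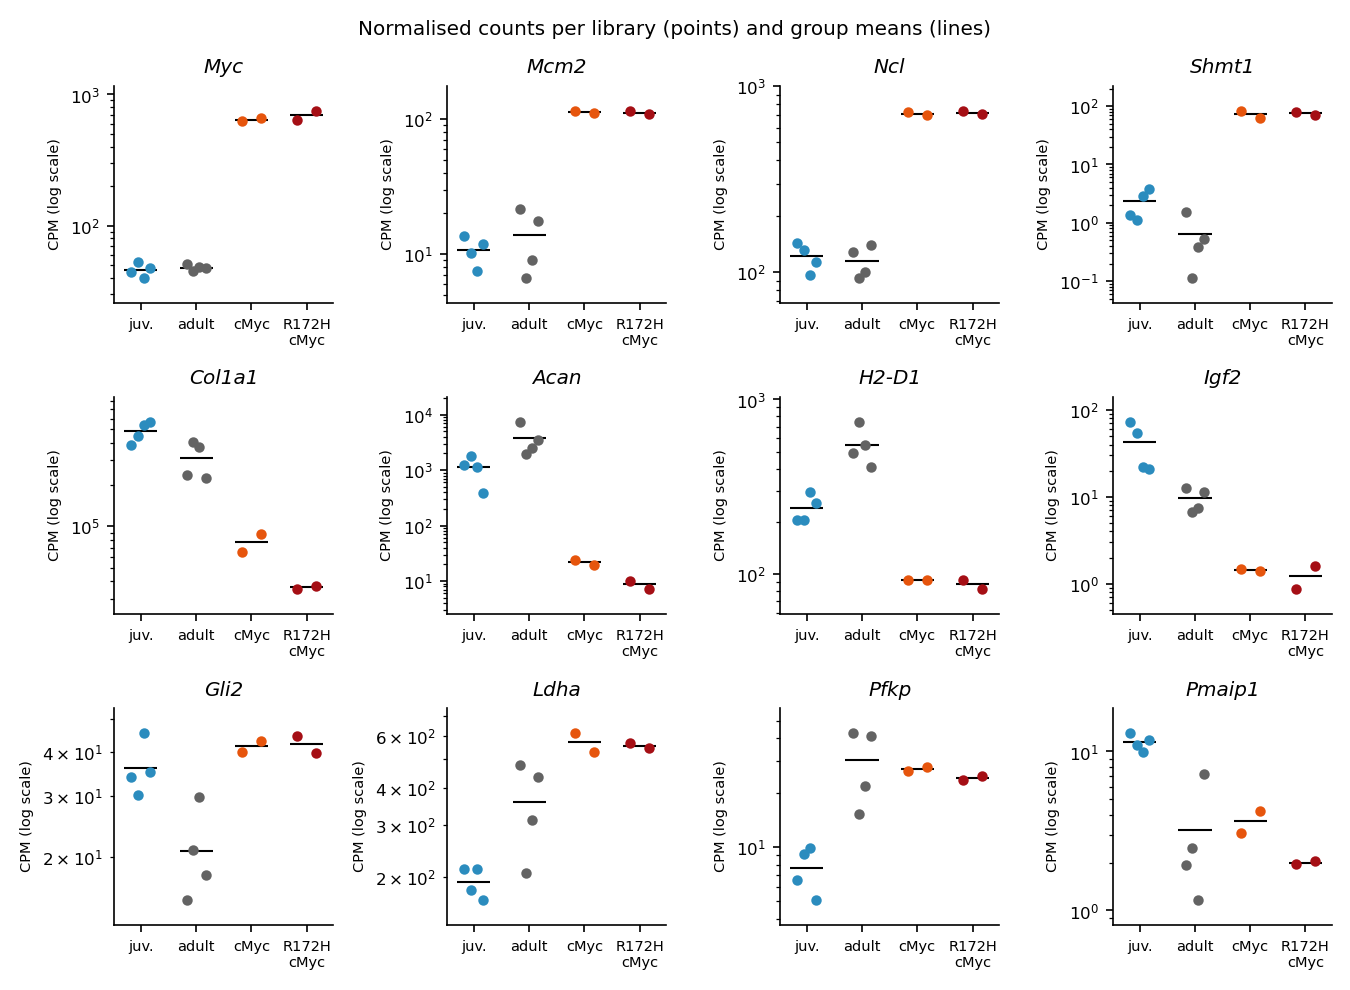
TMM-scaled CPM of 12 genes in each library (points, log axes) with group means (lines) for juvenile, adult, cMyc and R172HcMyc cells. *Myc*, *Mcm2*, *Ncl* and *Shmt1* are separated from both controls, *H2-D1* and *Igf2* fall below both by different distances, and *Gli2*, *Ldha*, *Pfkp* and *Pmaip1* lie differently to the adult and the juvenile points.

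The genes with the largest changes over adult cells had no or hardly any counts in the group where they were low. *Cecr2* (GRCm38, chr6:120666369-120771190, plus strand), a bromodomain gene, had no count in any adult library and 10.3, 12.5, 13.2 and 11.0 CPM in induced ones, at least 140.4-fold higher. *Slc47a1*, an organic cation exporter gene, and *Plch2*, a phospholipase C gene, were at least 71.5-fold and 73.5-fold higher on the same floor of 3 counts over the group. *Nos1*, the neuronal nitric oxide synthase, and *Bpifb1* had no count in any induced library. *Nos1* measured 16.2, 9.71, 6.34 and 6.93 CPM in adult libraries, at least 266-fold higher than that floor, and *Bpifb1* 23.1, 7.11, 11.6 and 7.89 CPM, at least 338-fold. *Rspo4*, a Wnt agonist gene, *R3hdml* and the cartilage gene *Scrg1* had counts in every adult library and none in 3, 3 and 2 of the 4 induced libraries.

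Genes called against adult cells alone with a difference between the controls were ranked by that difference. Among those lower than in adult cells, this ranking favours genes with few or no counts in juvenile cells. *Agtr2* (GRCm38, chrX:21484544-21489164, plus strand), the type 2 angiotensin receptor, measured 3.44, 3.27, 3.62 and 3.41 CPM in adult libraries and had no count in any juvenile or induced library, at least 93.4-fold below adult. *Alb*, which encodes the plasma protein albumin, measured 4.25, 2.26, 12.4 and 8.85 CPM in adult and 0, 0, 0 and 0.0496 CPM in induced libraries, and had no count in juvenile ones. *Thsd7b*, *Plxdc1* and *Serpina1d*, another plasma protein gene, were the others, and *Serpina1d* had no count in adult 4 either (9.42, 1.58, 2.72 and 0 CPM). *F2r*, the thrombin receptor gene, measured 2.13, 5.31, 5.18 and 4.16 CPM in adult, 0, 0.310, 0 and 0 CPM in juvenile and 0.183, 0.624, 0.229 and 0.298 CPM in induced libraries. In the other direction, *Gpc3*, a growth-regulating heparan sulphate proteoglycan gene, measured 0.810, 1.58, 2.85 and 2.03 CPM in adult, 7.76, 7.64, 6.68 and 4.84 CPM in juvenile and 7.20 to 12.9 CPM in induced libraries. Induced libraries lay above all adult libraries and overlapped the juvenile ones, at 2.51 ± 0.33 against adult and 0.60 ± 0.29 against juvenile cells. *Tspan11*, a tetraspanin gene, rose by 1.34 against adult cells and was at -0.69 against juvenile cells. *Bbs12*, at 0 to 0.129 CPM in adult and 1.83 to 2.44 CPM in induced libraries, and *Zfp446*, *Nupl2* and *Sncaip* completed this group, the latter at 1.61, 2.05 and 1.70 on the fitted scale.

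Among genes called against juvenile cells alone with such a difference, *Kcnq5*, a potassium channel gene, and *Mfsd2a*, a lysolipid transporter gene, were higher (fitted 3.43 and 5.88), and *Grik2*, a glutamate receptor gene, *Trpt1*, *Gdpd5* and *Sema4g* were lower along with *Pmaip1*. Against adult cells none of these passed, with fitted values from -1.11 for *Grik2* to 1.08 for *Mfsd2a*. The 2 genes called in opposite directions were *Nfatc2* and the gene model *Gm17092*. *Nfatc2* (GRCm38, chr2:168476410-168601657, minus strand), a calcium-regulated transcription factor gene, measured 21.8, 28.7, 45.0 and 36.9 CPM in adult, 9.86, 6.71, 4.59 and 2.73 CPM in juvenile and 11.8, 18, 17.3 and 14.9 CPM in induced libraries. Induced cells lay between the controls without overlap, at -1.09 ± 0.29 against adult and 1.34 ± 0.31 against juvenile cells, and *Gm17092* was at 1.13 and -1.10. Without adult 3 or cMyc 1 the adult value of *Nfatc2* was -0.91 or -0.94 and missed the fold, as it did with library totals (-0.42). *Gm17092* lost its adult call when juvenile 1, adult 1, adult 3, adult 4, cMyc 2, R172HcMyc 1 or R172HcMyc 2 was left out (0.76 to 1.23).

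Few genes were called between the genotypes, and with 2 libraries each this does not show that they were alike. The osteoblast matrix list summed to 114752 to 150000 CPM in cMyc and 66392.5 to 68321 CPM in R172HcMyc libraries. The ribosome biogenesis sums overlapped, at 4452 to 4547 and 4391 to 4461 CPM. No gene passed as higher (0%) and 22 as lower (0.169%) in R172HcMyc than in cMyc cells by edgeR at an adjusted p below 0.05, with 27 and 443 genes at an unadjusted p below 0.05, and DESeq2 gave 3 and 88. Of the 22, 21 were genes lowered against both controls, and 7 were on the osteoblast matrix list. *Lum*, the collagen-binding proteoglycan lumican, measured 349, 457, 431 and 372 CPM in adult, 39.7 and 50.0 in cMyc and 15.4 and 9.43 in R172HcMyc libraries. It was lower in both R172HcMyc libraries, with -3.17 for cMyc and -5.01 for R172HcMyc against adult cells and -1.85 ± 0.26 between the genotypes (adjusted p = 0.0047, edgeR). *Mid1*, a ubiquitin ligase gene, was the exception that rose against both controls, with 1.72, 1.81, 1.94 and 3.09 CPM in adult, 19.5 and 21.2 in cMyc and 4.12 and 5.01 in R172HcMyc libraries. *Gask1b* and *Mdga1* were also among the 4 with the largest difference (-2.25 and -1.89). Each genotype had 2 libraries, and the 22 calls became 39 and 35 without adult 1 or adult 2, 7 and 1 without R172HcMyc 1 or R172HcMyc 2, and 0 without cMyc 2.

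The reporter rows showed *EGFP* at 354, 326, 345 and 293 CPM in adult and 405, 381, 371 and 369 CPM in induced libraries, without a call (0.21 ± 0.15). *tdTomato*, which recombination removes, measured 1.72, 3.16, 7.12 and 5.12 CPM in adult and 34.5, 32.8, 28.9 and 33.1 CPM in induced libraries and was higher by 2.93 ± 0.62. With a replicate block it was at 2.61 and not called. Induced cells also carried *mCherry*, which is not among the reporter rows. Whether *mCherry* reads were counted as *tdTomato* was not tested. *CreERT2* was not called at -0.53 ± 0.14, and *Gm26917* rose by 1.23 ± 0.19 (adjusted p = 1.88e-05, edgeR).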

How the data were processed

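RNA was measured by RNA-seq with a directional library kit in sorted mouse osteoblasts, 12 libraries in all. Per the study's methods, reads were called with bcl2fastq 2.20, trimmed with cutadapt 4.6 and aligned with STAR 2.7.11a to mm10, and uniquely mapped reads were counted per gene with HTSeq-count 2.0.5. The strand setting of the counting is not given in the sources used here, so overlapping antisense genes are uncertain, as are near-identical copies. The deposited values are whole-number counts, which the authors did not normalise in that table. Total counts per library ran from 9066154 to 15684412, and 3 counts equal 0.137 to 0.417 CPM, below which a level was not detectable at this depth. This limit covers counting error only.

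From these counts, genes were filtered with filterByExpr, scaled with TMM factors and fitted with edgeR 4.0.16 (R 4.3.3, limma 3.58.1) by robust quasi-likelihood on 4 groups (juvenile, adult, cMyc and R172HcMyc). Induced cells are the mean of both induced groups. A call needed a Benjamini-Hochberg adjusted p below 0.05 over all 13005 genes and a log2 fold change of at least 1. Changes are log2 fold changes, with ± giving the standard error. A gene with no count in a group was set against a floor of 3 counts over that group. Groups came from the GEO labels. Control replicates were pools of 2 mice. The labels do not name the animals of the induced libraries, so p-values measure the spread between these samples. Replicate libraries differed by more than sampling noise (chi-square per degree of freedom 5.64 to 139 over genes).

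The members, the 31 gene lists and the tests were chosen with earlier results of these data known. Genes were named by rule: those the study follows, the first 3 and up to 2 called extremes in each direction of each list, up to 6 extremes in each direction over all genes and over genes called against only the adult or only the juvenile control, genes called in opposite directions, and up to 4 in each direction that differed between the induced genotypes. Some genes that the rule names are not reported here. Gene coordinates came from a GENCODE annotation of GRCm38, matched by gene identifier, and promoter windows from RefSeq (GRCm38.p6), matched by symbol. Alternatives were other scalings and filters, DESeq2 1.42.0, a replicate block, subsets of the libraries, the induced libraries as 1 group and each library left out. The procedure was tested on simulated counts.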

Additional observations from a re-analysis of the deposited data

Results flagged for a closer look

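In 3 of 72 sets of 4 control libraries tested, for the printed genes and the marker sums, a library stood apart from the other three. Chance gives about 1 in 20. *Mki67* was at 49.7 CPM in adult 1, against 24.0 to 27.7 CPM in the other adult libraries. *Mid1* was at 3.09 CPM in adult 4, against 1.72 to 1.94 CPM. *F2r* was at 0.310 CPM in juvenile 2 and had no count in the other juvenile libraries.

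For 22 genes the change over adult cells differed between the induced genotypes by edgeR's quasi-likelihood test of R172HcMyc over cMyc, and all were lower in R172HcMyc cells. Collagen genes made up 7 of them, *Col3a1* (-1.74), *Col11a1* (-1.57), *Col5a3* (-1.38), *Col4a1* (-1.27), *Col6a2* (-1.21), *Col4a2* (-1.08) and *Col6a1* (-1.02), which encode fibrillar, basement membrane and microfibrillar chains. Other matrix and secreted protein genes were *Lum* (-1.85), *Loxl2* (-1.50), which encodes a collagen cross-linking enzyme, *Bgn* (-1.15), *Igfbp7* (-1.17) and *Thbs1* (-1.12). The remaining genes were *Gask1b* (-2.25), *Mid1* (-2.15), *Mdga1* (-1.89), *Sytl2* (-1.62), *Sp6* (-1.60), *Galnt5* (-1.45), *Tmem45a* (-1.38), *Kcnma1* (-0.96), *Lbh* (-0.88) and *Rhoc* (-0.87). The cause of these differences was not tested. Their number varied from 0 to 39 when single libraries were left out.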

How the results depend on the processing

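Of 145 genes with a printed value, 118 kept direction and call under every alternative. The change of *Xist* over adult cells reversed to -2.97 without both induced libraries that hold it, an alternative chosen after seeing the data.

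With library totals, 4738 genes were higher and 1429 lower than in adult cells, 5795 and 951 than in juvenile cells, 4444 and 835 against both, 1460 against the juvenile control alone, and 3 differed between the genotypes. *Axin2* (-0.83), *Mxd4* (-0.69), *Slc2a1* (-0.69), *Bcl2l1* (-0.61), *Birc3* (-0.55), *Cdkn2d* (-0.43) and *Nfatc2* (-0.42) then lost their calls against adult cells. *Mcl1* (1.26) and *Slc20a1* (1.47) gained one, as did the glycolysis genes named above. With at least 10 counts in every library, 1524 were higher than in adult, 1548 than in juvenile and 1265 than in both, with 578 called against adult and 595 against juvenile cells alone. Fewer genes were then tested. Without the fold limit, 3902 were higher than in adult cells, 3830 higher and 3643 lower than in juvenile cells, and 3266 higher and 3109 lower against both. The 22 genes differing between the genotypes became 173 with no filter, 91 in DESeq2 and 0 without both *Xist* libraries, and the 1094 genes differing between the controls became 537 without them. Leaving out each library gave 2201 to 2383 higher and 2324 to 2655 lower than in adult cells, 0 to 39 between genotypes and 619 to 1375 between controls. The cause of these shifts was not tested.

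With a replicate block, 2204 genes were higher and 2427 lower than in adult cells. *tdTomato* (2.61), *Zbtb17* (0.80) and *Pgd* (0.99) lost their calls and *Mfsd2a* gained one (3.06), and 6 instead of 12 immediate early genes were lower than in juvenile cells. Deviations of same-numbered libraries correlated by -0.05 to 0.14, so the numbers do not pair the samples. Depth limits genes near 0 in a group.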

Other observations

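Among sex-linked genes, *Ddx3y*, which lies on the Y chromosome, measured 32.1, 34.3, 29.2 and 35.1 CPM in adult libraries, 18.7 and 17.1 CPM in cMyc 1 and R172HcMyc 1, and 0.0567 and 0.0496 CPM in cMyc 2 and R172HcMyc 2. The libraries with *Xist* counts were thus those near 0 in *Ddx3y*, and each induced genotype held 1 library of each kind. Of 3 endothelial genes tested, 1 was higher and 1 lower than in adult cells, and of 3 muscle genes 1 was lower, so those lists give little beyond the sums above.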
